A study of Mus musculus with 18 samples.

Results

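Constant hypoxia was compared with intermittent hypoxia in mouse heart, over 12 of the 18 arrays of the series, matched by duration. The 6 chronic constant hypoxia (CCH) arrays and the 6 chronic intermittent hypoxia (CIH) arrays were taken by their titles, with 2 arrays of each condition at 1, 2 and 4 weeks, and the other 6 arrays were controls, also with 2 at each of 1, 2 and 4 weeks. Every array was hybridised with total-RNA cDNA of a male heart, labelled with Cy5, together with cDNA of a female heart of the same condition and duration, labelled with Cy3. Each value is therefore the log2 ratio of a male to a female heart, and CCH minus CIH asks whether that ratio differed between the 2 kinds of hypoxia. The sex in which a transcript differed cannot be told from it. Strain, age, oxygen levels and cycle times are not given in the sources used here, and the labels do not say whether arrays came from separate animals, so a p-value here reflects only how arrays of a group scatter, which may be technical. With arrays set to a median of 0 and spots of the same symbol averaged, 7049 genes had a value in each of the 6 hypoxia groups.

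Sustained lack of oxygen stabilises the HIF transcription factors, which raise erythropoietin, glycolytic enzymes and angiogenic factors. In CIH low oxygen alternates with normal oxygen, so the tissue is repeatedly reoxygenated. The heart draws most of its ATP from mitochondrial oxidation of fatty acids, and the blood it holds brings transcripts of young red cells into whole-heart RNA.

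The CCH arrays held values for 14684 to 24512 of 28704 spots, and the CIH arrays for 15338 to 21846. Of the 28704 spots 18511 carried a single gene symbol. The Y-linked gene Eif2s3y, an initiation factor subunit that only male cells can express, was used to read the direction of the ratio. At its first spot the log2 ratio was 1.36 to 3.54 over the 6 CCH arrays and 2.10 to 2.88 over the 5 CIH arrays with a value, so that all 11 were positive. Its second spot gave 0.28 to 1.04 on CCH arrays and -0.03 to 1.68 on CIH arrays. The value of -0.03 was on the 4-week CIH array called replicate 1, which had no value at the first spot. The direction was thus not read on that array itself. The CIH array of 1 week called replicate 1 is titled CIH at 1 week, but its 2 source names say CCH at 2 weeks, and it was kept with its title. Across genes it correlated at 0.48 and 0.37 with the 2-week CCH arrays and at 0.30 with the other 1-week CIH array. Its highest correlation was 0.56, with the 4-week CIH array called replicate 1. Which of its labels holds was not tested. Arrays of the same group correlated at 0.06 to 0.69 across genes (median 0.48 over 6 pairs), and arrays of the other condition at the same duration at -0.12 to 0.73 (median 0.35 over 12 pairs). The lowest same-group correlation, 0.06, was that of the 2 CIH arrays of 4 weeks. In 3 pairs of different durations the correlation was below -0.3. Of 9 cardiomyocyte markers only the phospholamban gene Pln was tested. A ratio of 2 hearts does not show the level of a cell type, so markers could not check the heart muscle label here.

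Few genes passed the test between CCH and CIH. Averaged over the 3 durations, 1 gene passed an adjusted p of 0.05, Phtf1, named as a putative homeodomain transcription factor, and its male-to-female ratio was higher under CCH. At 1 week no gene passed, at 2 weeks Plekha7 and Pgrmc1 fell, and at 4 weeks Pabpc1, Epb41l5 and Phtf1 rose while Mrps28, Hspb2 and Ly6e fell. These calls from limma with Benjamini-Hochberg adjustment over all genes make up 0.0142% of the 7049 genes over the 3 durations, 0% at 1 week, 0.0284% at 2 weeks and 0.0851% at 4 weeks. At an unadjusted p under 0.05 the same fits held 702 genes (9.96%) over the 3 durations, 507 (7.19%) at 1 week, 545 (7.73%) at 2 weeks and 1271 (18%) at 4 weeks, where 352.45 would be met without any difference. The smallest adjusted p in limma was 0.653 at 1 week. At 4 weeks 202 genes (2.87%) had a limma adjusted p under 0.10, of which 132 (1.87%) were higher and 70 (0.993%) lower under CCH.

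**Figure D1:**
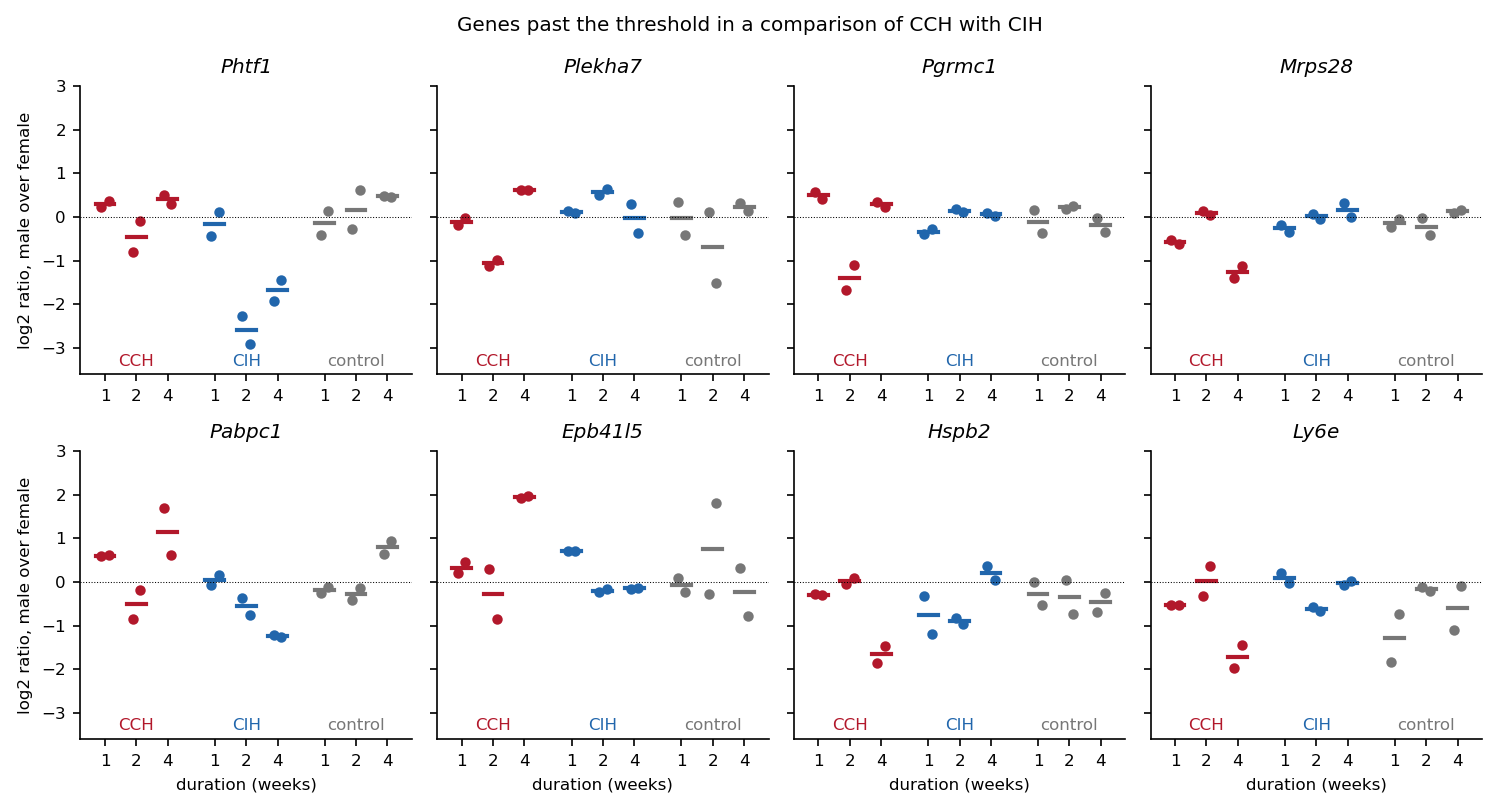
Log2 ratio of male over female heart (vertical axis) on every array for the 8 genes that passed the threshold in at least 1 comparison of CCH with CIH, by condition and weeks (horizontal axis). Points are arrays and bars are the mean of the 2 arrays of a group. Pabpc1 and Epb41l5 are high and Mrps28, Hspb2 and Ly6e are low on both CCH arrays of 4 weeks, and Pgrmc1 is low on both CCH arrays of 2 weeks.

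Pabpc1, the main cytoplasmic poly(A)-binding protein, which coats mRNA tails and aids translation, had the largest of the 4-week differences that passed. Its log2 ratio was 1.69 and 0.61 on the 4-week CCH arrays, against -1.22 and -1.26 on the 4-week CIH arrays. The groups did not overlap, with male above female in CCH and male below female in CIH. The difference was 2.39 ± 0.33 (SE, n = 2 each), a 5.23-fold higher ratio (limma adjusted p = 0.0375), and its 2 spots gave 2.20 and 2.58 when fitted apart. At 2 weeks Pabpc1 stood at -0.85 and -0.18 under CCH and at -0.37 and -0.76 under CIH, so that these groups overlapped. The 4-week controls stood at 0.64 and 0.93, near the lower of the CCH arrays.

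Epb41l5, a band 4.1 family protein that links the membrane to the actin skeleton, had log2 ratios of 1.93 and 1.97 on the 4-week CCH arrays, against -0.16 and -0.14 on the 4-week CIH arrays. Its difference was 2.10 ± 0.30 (limma adjusted p = 0.0375), from 1 spot at that duration. Replicates were within 0.1 of each other in both groups, but the control arrays of 2 weeks stood at -0.27 and 1.80. A male excess near that of CCH at 4 weeks therefore occurred on 1 control array.

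Hspb2, a small heat shock protein of heart and skeletal muscle, had -1.85 and -1.47 on the 4-week CCH arrays, against 0.35 and 0.04 on the 4-week CIH arrays, a difference of -1.86 ± 0.27 (limma adjusted p = 0.0375). At 2 weeks the order was the other way, with -0.05 and 0.08 under CCH and -0.83 and -0.96 under CIH, a difference of 0.91 ± 0.27 that did not pass (limma adjusted p = 0.582). Mrps28, a protein of the small mitochondrial ribosomal subunit, had -1.39 and -1.13 on the 4-week CCH arrays, against 0.33 and -0.01 on the 4-week CIH arrays, a difference of -1.42 ± 0.19 (limma adjusted p = 0.0375). On every other array, controls included, Mrps28 lay between -0.61 and 0.14 at 1 and 2 weeks and reached 0.16 in controls at 4 weeks. Ly6e, a lipid-anchored surface protein of the Ly6 family, had -1.98 and -1.45 on the 4-week CCH arrays, against -0.08 and 0.02 on the 4-week CIH arrays, a difference of -1.69 ± 0.25 (limma adjusted p = 0.0376). Control arrays reached -1.84 for Ly6e at 1 week and -1.10 at 4 weeks. Each of these 3 genes rests on 1 spot.

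At 2 weeks Pgrmc1, a haem-binding membrane protein related to steroid receptors in name, had -1.67 and -1.11 on the CCH arrays, against 0.18 and 0.11 on the CIH arrays. The fall of 1.54 ± 0.21 on the log2 scale passed in limma (adjusted p = 0.0463), and all other 14 arrays lay between -0.40 and 0.57. At 1 week the sides were reversed, with 0.57 and 0.42 under CCH and -0.40 and -0.27 under CIH, a difference of 0.83 ± 0.21 that did not pass (limma adjusted p = 0.66). The difference at 2 weeks minus that at 1 week was -2.36 ± 0.30 and was the 1 call among all genes in that contrast (limma adjusted p = 0.0411, 0.0142% of genes). With the CIH array of conflicting labels counted as CCH at 2 weeks, the 2-week difference of Pgrmc1 was -1.21 and did not pass (limma adjusted p = 0.336). In none of the 12 fits that leave out 1 array did Pgrmc1 pass at 2 weeks, with limma adjusted p from 0.0704 to 0.304. A joint test of any change of the difference over the 3 durations called 0 genes in limma, with 969 (13.7%) at an unadjusted p under 0.05.

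The averages of Phtf1 and Plekha7 combine spots that disagree and that were measured on different arrays. Phtf1 averaged 0.23, 0.37, -0.80, -0.09, 0.51 and 0.30 on the CCH arrays in order of duration, against -0.44, 0.11, -2.26, -2.90, -1.91 and -1.44 on the CIH arrays. Each CCH array lay above both CIH arrays of its own duration, and the mean difference was 1.56 ± 0.18 (SE, limma adjusted p = 0.0154), a 2.95-fold higher ratio. The second Phtf1 spot, at -0.37 to 1.40 on the CCH arrays, had no value on any of the 4 CIH arrays of 2 and 4 weeks. On those arrays the average is the first spot alone, which was at 0.05, -1.95, 0.18, -0.07 and -0.81 on the 5 CCH arrays with a value and at -1.44, -0.28, -2.26, -2.90, -1.91 and -1.44 on the CIH arrays. Fitted alone, the first spot differed by 1.28 ± 0.37 and did not pass (limma adjusted p = 0.231), and with a constant offset for each spot removed Phtf1 differed by 1.07 (limma adjusted p = 0.147).

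Plekha7, a protein of adherens junctions, averaged -1.13 and -0.98 on the 2-week CCH arrays, against 0.52 and 0.65 on the 2-week CIH arrays, a difference of -1.64 ± 0.22 (limma adjusted p = 0.0463). Its low CCH values came from the second spot, at -2.48 and -2.28, which had no value on the CIH arrays of 2 weeks. The first spot, measured on all 12 arrays, was at 0.22 and 0.31 under CCH and at 0.52 and 0.65 under CIH, a difference of -0.32 ± 0.21 that did not pass (limma adjusted p = 0.773). With the array of conflicting labels regrouped, the average of Plekha7 differed by -1.24 (limma adjusted p = 0.39). Such changing spot sets underlie 3129 (44.4%) of the genes tested.

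**Figure D2:**
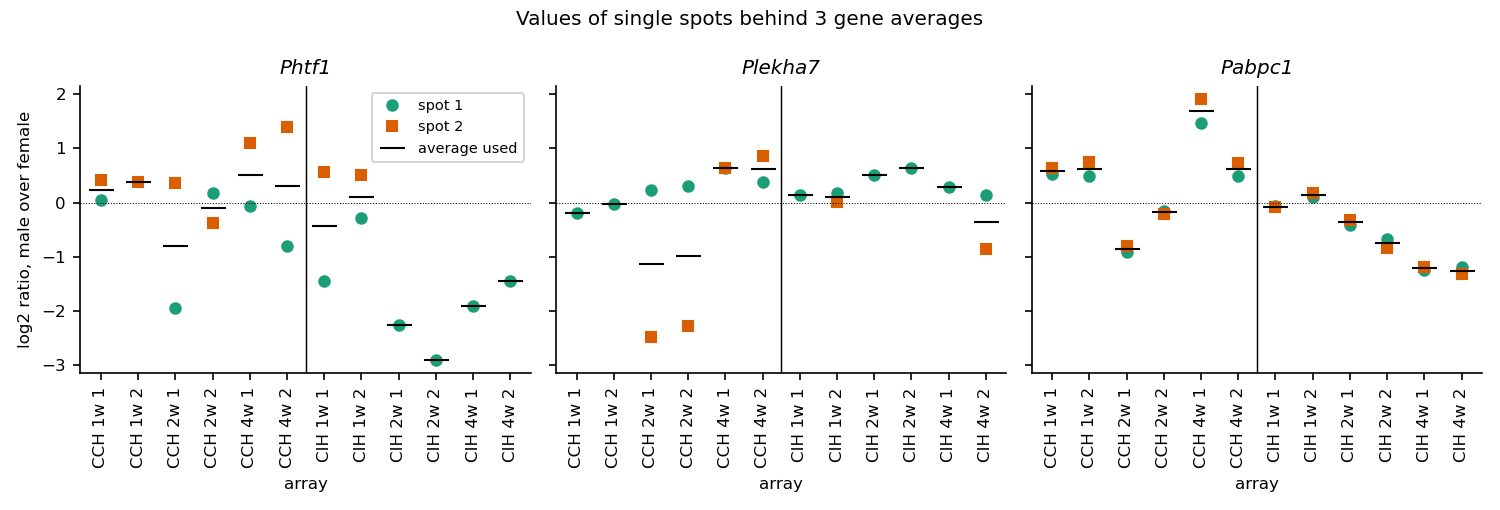
Log2 ratio of male over female heart (vertical axis) for single spots of Phtf1, Plekha7 and Pabpc1 on each of the 12 hypoxia arrays (horizontal axis), with the average used in the fit as a black dash. Spot 2 of Phtf1 is missing on the 4 CIH arrays of 2 and 4 weeks, spot 2 of Plekha7 is missing on the 2 CIH arrays of 2 weeks, and the spots of Pabpc1 lie close together on every array.

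The 12 genes that led on the higher side over the 3 durations were Phtf1, Blvrb, Abhd10, Zeb2, Zfyve21, Pabpc1, Spc24, Ube2c, Crtc1, Rai14, Rangap1 and Rnf19b. Their differences were 0.82 to 1.56, and only that of Phtf1 passed, the others having limma adjusted p from 0.0864 to 0.163. Spot sets changed for others besides Phtf1. At 2 weeks the first spot of Zfyve21 lay at 0.22 and 0.10 under CCH, against 0.44 and 0.52 under CIH. Its second spot had 2-week values only under CIH, at -1.74 and -2.18. The second Abhd10 spot had no value on the CIH arrays of 2 and 4 weeks. The first, fitted alone, differed by 0.90 ± 0.28 (limma adjusted p = 0.267). The first spot of Rai14 had values on 7 of the 12 arrays. Blvrb, a flavin and biliverdin reductase abundant in red cells, had 0.76, 0.50, -0.67, -0.24, 0.83 and 0.92 on the CCH arrays in order of duration, against -0.78, -0.08, -0.87, -0.88, -0.74 and -0.51 on the CIH arrays. Every CCH array lay above both CIH arrays of its duration, and the difference was 0.99 ± 0.14 (limma adjusted p = 0.0864), a 1.99-fold higher ratio that did not pass. Zeb2, a zinc-finger repressor, had a difference of 1.42 ± 0.24 over the 3 durations, and Rai14, an actin-binding ankyrin-repeat protein, 1.41 ± 0.27. Zeb2 had no value on the 2-week CCH array called replicate 1, so that its difference did not include that array. The list also held Spc24, a kinetochore subunit, Ube2c, the ubiquitin-conjugating enzyme of the anaphase-promoting complex, Rangap1, which activates the GTPase Ran, and Crtc1, a coactivator of CREB.

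The values on CCH and CIH arrays chose these 12 genes, so their place there only describes the choice: all 12 were below 0 on every CIH array of 2 and 4 weeks with a value and above 0 on both CCH arrays of 4 weeks. On the control arrays of 4 weeks, which the choice did not use, all 12 were above 0 on both, as were 24.7% of the tested genes with both values. The 2-week CCH array called replicate 1 was the lowest CCH array for 10 of the 11 with a value there. The 2-week CIH array called replicate 2 was the lowest CIH array for 11 of 12. At 4 weeks their differences were 1.26 to 2.39 (limma adjusted p 0.0375 to 0.0695), at 1 week 0.32 to 1.06 and at 2 weeks 0.04 to 2.13.

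Red-cell transcripts varied widely between arrays. Of 15 erythroid markers 7 were tested, and 6 of the 7 differences over the 3 durations were positive and 1 negative, with a median of 1.03, against 58.4% negative and a median of -0.04 over all genes. None passed in limma, and 4 were higher at an unadjusted p under 0.05, a rule met by 5.06% of all genes. By duration the median difference was 0.63 at 1 week, 0.81 at 2 weeks and 1.40 at 4 weeks, where it was 0.87 without the CCH array called replicate 1. The median log2 ratio of the 7 markers was 0.47, 0.22, -2.01, 0.18, 0.95 and 0.06 on the CCH arrays in order of duration, against -0.74, 0.22, -1.34, -2.44, -1.48 and -0.55 on the CIH arrays. The marker median, male over female, was thus below 0 on 1 of 6 CCH arrays and on 5 of 6 CIH arrays, and the control medians ran from -0.39 to 1.20. A difference in red-cell number and one in RNA per cell cannot be told apart in whole heart, nor can the sex in which it lay.

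Slc4a1, the red-cell anion exchanger band 3, had log2 ratios of 1.19, 0.26, -2.01, -0.14, 1.78 and -0.13 on the CCH arrays in order of duration, against -1.25, -0.11, -1.34, -2.44, -1.91 and -1.66 on the CIH arrays. The groups overlapped only through the 2-week CCH array at -2.01 and through CIH at 1 week, and the difference was 1.61 ± 0.41 (limma adjusted p = 0.193). Alas2, the first enzyme of haem synthesis in red-cell precursors, had 0.02, 0.82, -2.04, 0.34, 1.50 and -0.78 on the CCH arrays, against -0.74, -0.14, -1.77, -2.82, -1.68 and -1.41 on the CIH arrays, a difference of 1.40 ± 0.45 (limma adjusted p = 0.303). Hba-x, the embryonic zeta globin, differed by 1.03 ± 0.32 and Hbb-bh1, an embryonic beta-like globin, by 1.06 ± 0.38 (limma adjusted p = 0.282 and 0.36). A cDNA spot of a globin can bind transcripts of its close relatives, so which globin was measured is uncertain. The other beta-like globin Hbb-y differed by 0.19 ± 0.54, and the erythroid transcription factor Klf1 by -0.06 ± 0.21, neither of which passed. Gata1, the other erythroid factor tested, had values on only 8 of the 12 arrays.

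GATA1 drives erythroid genes through GATA motifs, so promoter sequence is shown for 2 of the higher erythroid genes and for Blvrb, in RefSeq's GRCm38.p6 sequence of the 250 bases before the gene start, with matches to AGATAA or TGATAA on either strand in capitals.
Alas2, chrX:150547167-150547416, plus strand: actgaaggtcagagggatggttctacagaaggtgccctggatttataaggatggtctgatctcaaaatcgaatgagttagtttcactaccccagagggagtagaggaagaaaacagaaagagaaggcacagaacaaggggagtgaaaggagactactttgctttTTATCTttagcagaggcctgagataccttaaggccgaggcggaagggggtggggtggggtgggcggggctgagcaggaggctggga
Hba-x, chr11:32276350-32276599, plus strand: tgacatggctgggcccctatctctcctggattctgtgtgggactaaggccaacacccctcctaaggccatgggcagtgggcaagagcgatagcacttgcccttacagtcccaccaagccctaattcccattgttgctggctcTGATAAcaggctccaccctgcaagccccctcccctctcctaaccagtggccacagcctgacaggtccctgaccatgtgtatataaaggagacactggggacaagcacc
Blvrb, chr7:27447728-27447977, plus strand: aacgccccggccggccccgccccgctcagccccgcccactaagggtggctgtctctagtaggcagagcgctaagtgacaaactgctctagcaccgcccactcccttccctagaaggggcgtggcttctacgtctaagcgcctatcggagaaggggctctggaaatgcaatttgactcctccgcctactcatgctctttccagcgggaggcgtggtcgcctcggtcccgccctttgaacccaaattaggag
Alas2 and Hba-x each held 1 match and Blvrb held 0. Of the 5 erythroid promoters found in RefSeq's table, 4 held a match, Hbb-y and Klf1 among them, while 17% of all 27025 promoters did. The 4 promoters with a match belong to genes with differences of 1.40, 1.03, 0.19 and -0.06, so that a match went with both large and small differences. A match describes letters and not a bound site.

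**Figure D3:**
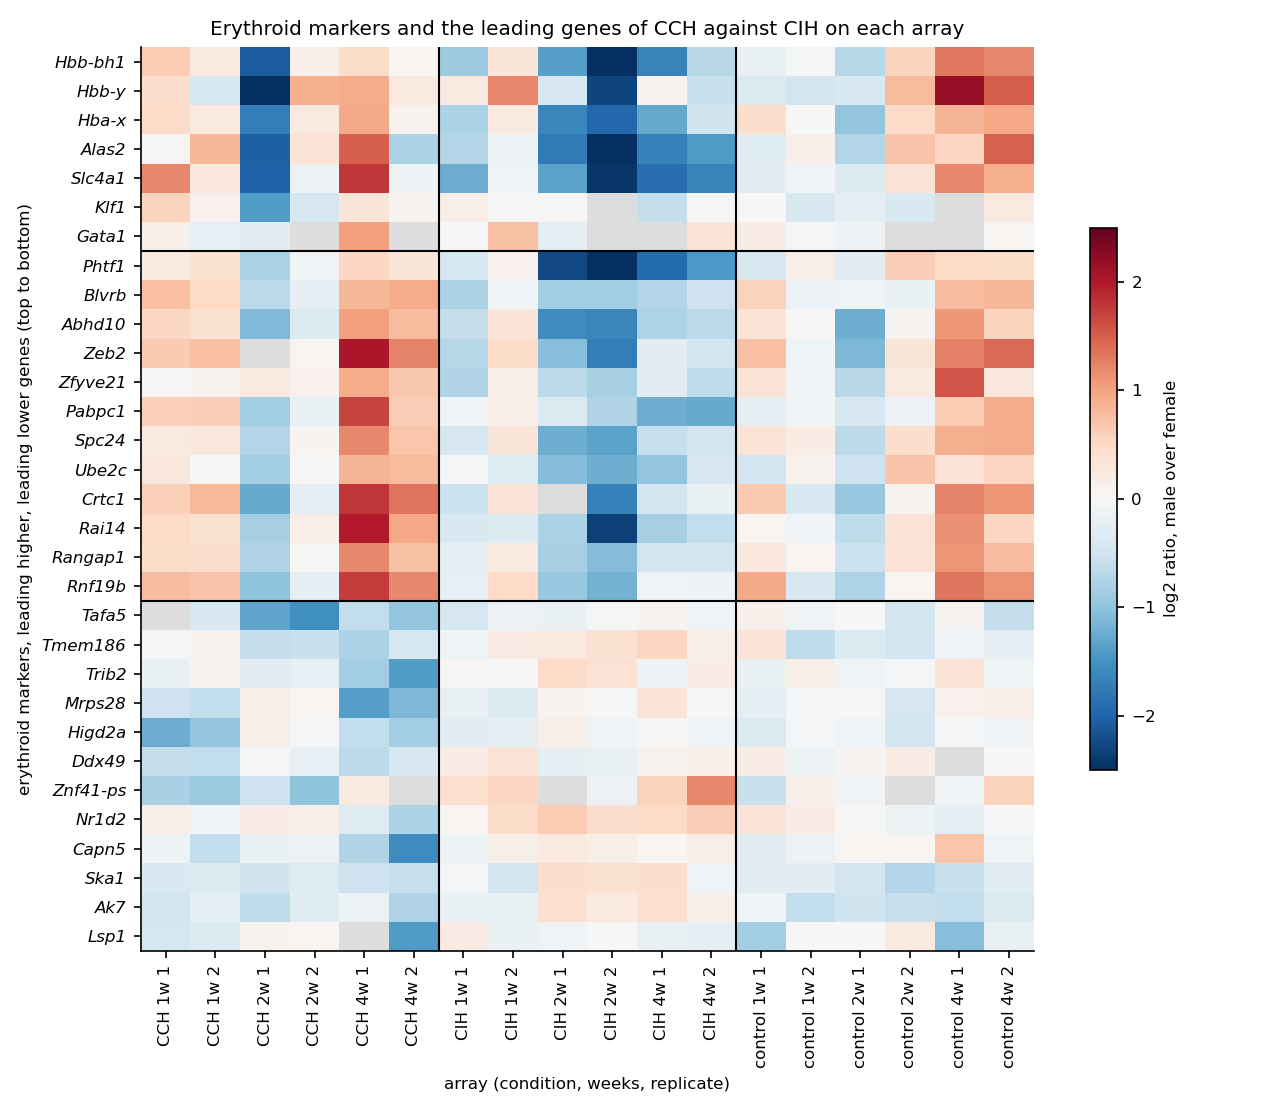
Log2 ratio of male over female heart (colour) for the 7 erythroid markers, the 12 leading higher and the 12 leading lower genes (rows, top to bottom) on CCH, CIH and control arrays (columns); grey is no value. The CIH arrays of 2 and 4 weeks are blue in most erythroid and leading higher rows, as is the 2-week CCH array called replicate 1.

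Leaving out the 2-week CCH array called replicate 1, whose erythroid median of -2.01 stood apart from the other CCH arrays, raised the calls over the 3 durations to 88 of 7012 genes (1.25%), of which 86 were higher and 2 lower under CCH. Of the 12 leading higher genes 11 were called in that fit, and of the 12 leading lower genes 1, Tafa5. That array was singled out by its low erythroid values, so the larger differences of the same markers without it, such as 1.92 ± 0.38 for Slc4a1 and 1.80 ± 0.38 for Alas2, follow at least in part from that choice and are no test of them. It was also the lowest CCH array for 10 of the 11 leading higher genes with a value there. Higher calls in that fit are therefore no test of those genes either. The 5 largest differences among the 88, named after their values were seen, were those of Cd24a, a surface sialoglycoprotein (2.10 ± 0.37), Pam, an enzyme that amidates peptides (2.00 ± 0.25), Slc4a1, Isg20, an exonuclease (1.81 ± 0.27), and Tle5, a corepressor of the Groucho family (1.81 ± 0.28). With the erythroid median of each array as a covariate, limma called 0 genes over the 3 durations, Pgrmc1 and Phtf1 at 2 weeks, and 1 gene at 4 weeks, Epb41l5. Among the calls that were lost, Phtf1 differed by 1.16 ± 0.15 over the 3 durations (limma adjusted p = 0.0828), against 1.56 ± 0.18 in the reported fit. At 4 weeks Pabpc1 differed by 1.85, Phtf1 by 1.49, Mrps28 by -1.29, Hspb2 by -1.67 and Ly6e by -1.87 (limma adjusted p 0.237 to 0.255). Plekha7 differed by -1.58 at 2 weeks (limma adjusted p = 0.165). The other leading higher genes are not shown with this covariate. Over all alternatives except leaving out an array, their lowest differences ran from 0.48 for Rangap1 to 0.81 for Rai14. The part of red-cell content in the other differences was not tested beyond these values.

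The calls depended on single arrays at 4 weeks too. Without the 2-week CCH array called replicate 1 there were 58 calls at 4 weeks, without its partner 55, and without the 4-week CCH array called replicate 2 there were 53, with 12 genes in all 3 sets. In every other fit with 1 array left out 0 or 1 gene was called at 4 weeks. Over the 3 durations, leaving out the 1-week CIH array called replicate 2 gave 5 calls, Phtf1, Blvrb, Zfyve21, Abhd10 and Zeb2. Phtf1 passed over the 3 durations in 5 of the 12 fits. It did not pass without either CCH array of 1 or 4 weeks, without replicate 1 of CIH at 1 or 4 weeks or without replicate 2 of CIH at 2 weeks, with limma adjusted p from 0.0503 to 0.107. Plekha7 passed at 2 weeks in 2 of the 12 fits, those without a CIH array of 4 weeks, and at 4 weeks Hspb2 passed in 5, while Pabpc1, Epb41l5, Phtf1, Mrps28 and Ly6e passed in 3 each. No sign changed in these fits, in which the 8 genes kept a size of at least 1.25.

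**Figure D4:**
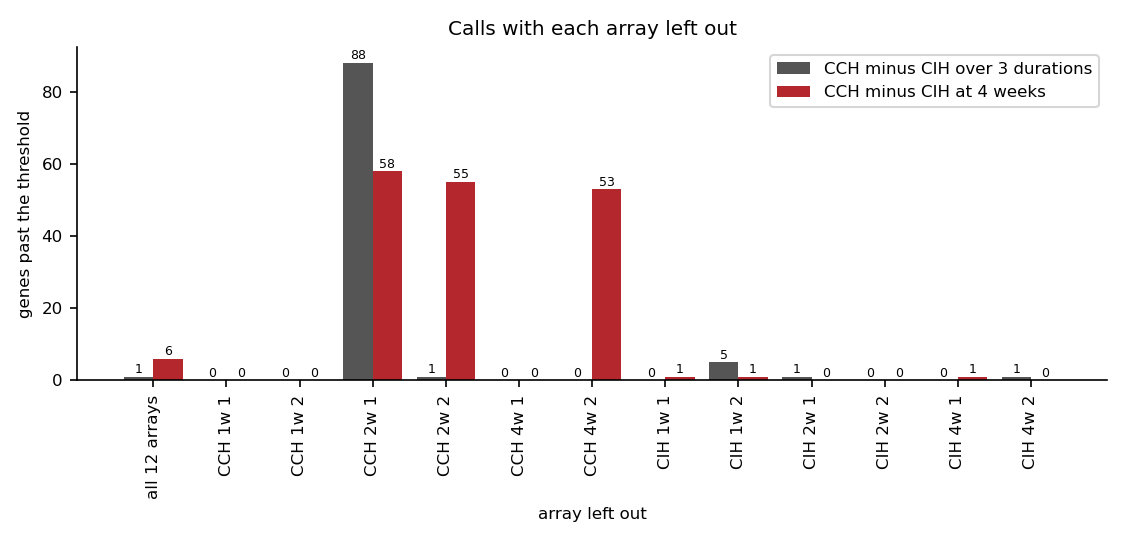
Number of genes past a limma adjusted p of 0.05 (vertical axis, from 0) with all 12 arrays and with each array left out in turn (horizontal axis), over the 3 durations (grey) and at 4 weeks (red). The bars reach 88, 58, 55 and 53 when a 2-week CCH array or the 4-week CCH array called replicate 2 is left out.

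On the lower side the 12 leading genes over the 3 durations were Tafa5, Tmem186, Trib2, Mrps28, Higd2a, Ddx49, Znf41-ps, Nr1d2, Capn5, Ska1, Ak7 and Lsp1. Their differences were -0.86 to -0.48 with limma adjusted p from 0.163 to 0.183, so none passed. At 2 weeks Tafa5 was measured by different spots, at -1.32 and -1.53 on the CCH arrays and -0.17 and -0.03 on the CIH arrays. No Tafa5 spot had a value in both conditions at that duration. Trib2 had a spot valued at 2 weeks only on the CIH arrays, at 0.94 and 0.99. Its shared spot lay at -0.27 and -0.20 under CCH and at 0.04 and -0.25 under CIH. Higd2a and Tmem186 take part in assembly of mitochondrial respiratory complexes, and Nr1d2 is the clock repressor REV-ERB beta. Nr1d2 had 0.16, -0.10, 0.19, 0.17, -0.32 and -0.78 on the CCH arrays in order of duration, against 0.06, 0.46, 0.64, 0.43, 0.49 and 0.61 on the CIH arrays. It lay below both CIH arrays on both CCH arrays of 2 weeks and of 4 weeks, and its difference over the 3 durations was -0.56 ± 0.13 (limma adjusted p = 0.163). Higd2a was low on the 1-week CCH arrays, at -1.23 and -0.97 against -0.27 and -0.23 on the 1-week CIH arrays, and near 0 in both conditions at 2 weeks.

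Genes of mitochondrial energy production were mostly below 0 in this comparison, by small amounts. Of 36 complex I genes 33 had a negative difference over the 3 durations, with a median of -0.18, against 58.4% negative and a median of -0.04 over all genes. Of the 36 none passed and 7 were lower at an unadjusted p under 0.05, a rule met by 4.89% of all genes. Of 30 genes of complexes II to V 28 were negative (median -0.18), of 21 fatty acid oxidation genes 19 (median -0.14) and of 14 citric acid cycle genes 13 (median -0.26). These medians moved with single arrays of 4 weeks: without the 4-week CIH array called replicate 1 that of complex I was -0.10, of fatty acid oxidation -0.11 and of the citric acid cycle -0.11, and without its partner they were -0.22, -0.29 and -0.39. At 4 weeks the medians were -0.39 for complex I and -0.43 for complexes II to V, against -0.04 over all genes. The complex I median at 4 weeks was -0.24 without the 4-week CIH array called replicate 1, and the medians of fatty acid oxidation and the citric acid cycle, at -0.08 and -0.10, were 0.13 and 0.27 without it and -0.46 and -0.57 without its partner, so they had no settled direction at 4 weeks. Of complex I and of complexes II to V 3 and 4 members had a limma adjusted p under 0.10, a rule met on the lower side by 0.993% of all genes. Ndufc1, a complex I subunit, was at -0.79 and -1.23 on the 4-week CCH arrays, against 0.31 and 0.11 on the 4-week CIH arrays, a difference of -1.22 ± 0.24 (limma adjusted p = 0.0647). Atpif1, the inhibitor of ATP synthase, differed by -1.30 ± 0.28 and Cox7a2, a cytochrome oxidase subunit, by -0.95 ± 0.21 at 4 weeks (limma adjusted p = 0.0695 each). Acads, the short-chain acyl-CoA dehydrogenase of fatty acid oxidation, was on the other side, at 0.71 ± 0.16 over the 3 durations (limma adjusted p = 0.163), and none of these passed.

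On the single arrays complex I was not lowest in 1 condition throughout. Its median log2 ratio was -0.40, -0.33, 0.12, 0.10, -0.33 and -0.46 on the CCH arrays in order of duration, against -0.20, -0.20, 0.04, 0.07, 0.13 and -0.12 on the CIH arrays. The CCH arrays were the lower ones at 1 and 4 weeks and the higher ones at 2 weeks, and 1 control array of 2 weeks was lower than all of them, at -0.60.

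Cytosolic ribosomal protein genes were mostly below 0 at 4 weeks. Of 60 genes 54 were negative at 4 weeks, against 53.3% of all genes, with a median of -0.39 (-0.25 without the 4-week CCH array called replicate 1), and 22 were lower at an unadjusted p under 0.05, a rule met by 8.44% of all genes. None passed, and 5 had a limma adjusted p under 0.10, among them Rps20 at -1.04 ± 0.20 (limma adjusted p = 0.0647) and Rps14 at -0.85 ± 0.22. At 1 week 23 of the 60 were negative, against 52.8% of all genes, with a median of 0.06. The array medians at 4 weeks were -0.47 and -0.42 under CCH and -0.21 and 0.01 under CIH, and the groups did not overlap. The control medians over all durations ran from -0.57 to 0.14, so 1 or more control arrays lay below both of these CCH arrays. Among 61 mitochondrial ribosomal protein genes 48 were negative at 4 weeks (median -0.22) and 1, Mrps28, fell, while Mrpl47, of the large mitochondrial subunit, stood at 1.22 ± 0.28 over the 3 durations (limma adjusted p = 0.163).

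Cell cycle and DNA replication genes had small differences, mostly above 0. Of 22 genes 16 were positive over the 3 durations (median 0.11), 5 were higher at an unadjusted p under 0.05, a rule met by 5.06% of all genes, and none passed. The median was 0.02 without the 4-week CIH array called replicate 1 and 0.22 without its partner. Rrm1, the large subunit of ribonucleotide reductase, differed by 0.81 ± 0.17 (limma adjusted p = 0.163) and Mki67, the Ki-67 proliferation marker, by 0.74 ± 0.18 (limma adjusted p = 0.183). Rrm1 was at -0.63 and 0.21 on the 2-week CCH arrays, against -1.24 and -1.69 on the 2-week CIH arrays, and at 0.77 and 0.34 on the 4-week CCH arrays, against -0.95 and -0.56 on the 4-week CIH arrays. The groups did not overlap at either duration, and the 4-week controls lay at 0.78 and 1.06.

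Genes of the hypoxia response had differences on both sides of 0. The 15 tested genes of this list, which held Hif1a, Arnt and the HIF regulator Vhl besides HIF targets, had a median difference of 0.00 over the 3 durations, 8 of them positive, and 2 were higher at an unadjusted p under 0.05, against 5.06% of all genes. Those were Bnip3l, a mitophagy receptor also needed for red-cell maturation, at 0.78 ± 0.26 (limma adjusted p = 0.314), and Egln3, the HIF prolyl hydroxylase PHD3, at 0.46 ± 0.17 (limma adjusted p = 0.389). Hif1a differed by -0.21 ± 0.17, the pyruvate dehydrogenase kinase Pdk1 by -0.28 ± 0.17, the glucose transporter Slc2a1 by 0.32 ± 0.14 and haem oxygenase Hmox1 by 0.21 ± 0.33, and none passed. Glycolysis genes had a median of 0.06 over 15 genes. Of 34 genes of hypoxia, heart muscle and sex chosen for description 20 could be tested, and 3 of these, Alas2, Egln3 and Slc2a1, had an unadjusted p under 0.05, a rule met by 9.96% of all genes. Nppb, the natriuretic peptide B raised in cardiac load, differed by -0.19 ± 0.36, the calcium pump gene Atp2a2 by -0.04 ± 0.17 and Eif2s3y by 0.26 ± 0.24.

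Markers of other cell types had smaller median differences than the erythroid ones, apart from the atrial genes. The 3 tested atrial genes had a median difference of 1.07, from Sln at 1.07 ± 0.58, Myl7 at 1.08 ± 0.74 and Myl4 at 0.25 ± 0.22, and none passed. Their array medians were 2.75 and -0.88 on the 1-week CCH arrays, against -1.93 and 0.89 on the 1-week CIH arrays, so the replicates of a group lay farther apart than the conditions at that duration. At 2 weeks the medians were -0.69 and 0.34 under CCH, against 0.03 and -0.73 under CIH, and these groups overlapped. At 4 weeks they were 0.86 and 0.42 under CCH, against -0.71 and -0.64 under CIH, without overlap, and the 4-week controls lay at -0.42 and -0.60. How atrial tissue was shared between the hearts on an array was not tested. Leukocyte markers had a median of -0.07 over 13 genes, endothelial -0.12 over 6, fibroblast -0.13 over 6 and skeletal muscle -0.31 over 5.

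**Figure D5:**
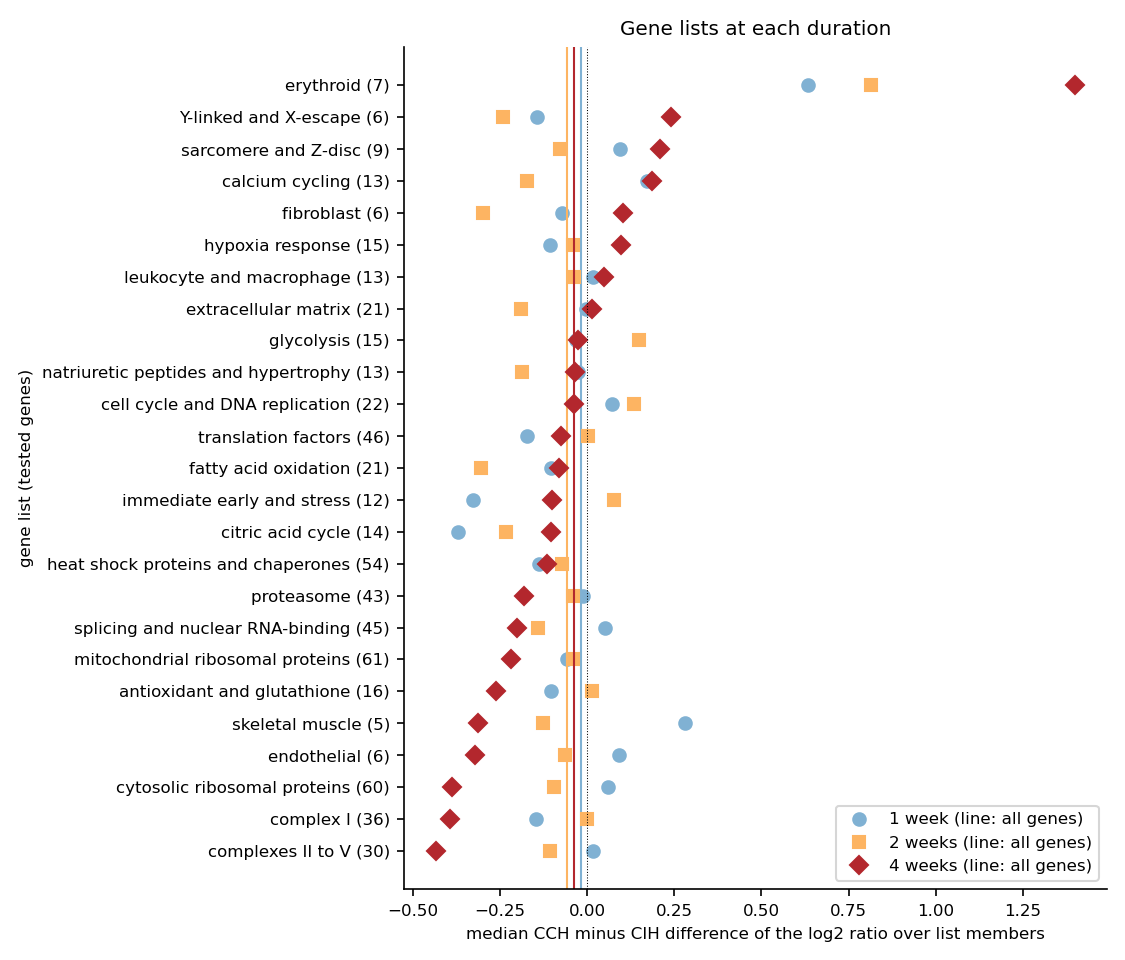
Median CCH minus CIH difference of the log2 ratio over the members of each gene list (horizontal axis) at 1, 2 and 4 weeks, for lists with at least 5 tested genes (rows, with the number tested); vertical lines are the medians of all genes. The erythroid list lies at 0.63, 0.81 and 1.40, and at 4 weeks complexes II to V, complex I and cytosolic ribosomal proteins lie lowest, at -0.43, -0.39 and -0.39.

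The overall size of the male-to-female differences was not larger under either kind of hypoxia beyond the spread between arrays. The SD of the log2 ratios over genes was 0.42 ± 0.12 on CCH arrays and 0.39 ± 0.10 on CIH arrays (SD, n = 6 each). The difference of 0.03 had a two-sided exact permutation p of 0.648 over all relabellings within duration, where the smallest possible p is 0.00926. The order changed with duration. At 1 week the SD was 0.435 and 0.285 under CCH, against 0.315 and 0.318 under CIH. At 2 weeks both CCH arrays were lower, at 0.403 and 0.312 against 0.420 and 0.547. At 4 weeks both were higher, at 0.627 and 0.464 against 0.448 and 0.302. Single durations were not tested for this SD.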

How the data were processed

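Per the labels these were 2-colour cDNA arrays. The authors deposited a log2 ratio per spot and array. On every array the linear ratios average 1, as the values show, so a scaling step came before deposit. Background correction, spot filter and normalization are not given in the sources used here. Per the labels male cDNA carried Cy5 and female cDNA Cy3. Which channel is on top is not stated, and male over female was read from Eif2s3y. Spots were named from the platform annotation (18511 spots with 1 symbol, 937 with several and 9256 with none). Symbols matched RefSeq for 18267 spots. Array medians were subtracted, and spots of a symbol averaged. Group means of the 12 hypoxia arrays came from limma 3.58.1 (R 4.3.3), and the contrasts were CCH minus CIH at each of 3 durations, their average, and the change with duration, with Benjamini-Hochberg adjustment over 7049 genes. The controls were outside the fit. Errors are SE from the fit unless named SD. Named genes had values on at least 10 of 12 arrays: the 12 leading per direction over the 3 durations, 5 per direction at each duration, 6 for change with duration and 3 per list of at least 5 members, besides fixed genes. Hbb-bh1, Hbb-y, Klf1, Atpif1, Cox7a2, Rps20, Tmed5 and the genes called only without 1 array were named after their values were seen. Members and lists were chosen with earlier results of these data known. The fit was also run on simulated data, in which arrays varied independently and the shift was the same on all CCH arrays. Only the average over the 3 durations was scored there, so calls at single durations were not covered. Replicate numbers were not treated as pairs in the reported fit. Over 15 pairs of groups the correlation of replicate differences ran from -0.43 to 0.44, with 6 above 0.1. These values do not show whether arrays were paired. Alternatives covered centring, scaling, spot handling, array weights, the replicate block, regrouping 1 array and leaving out each array. Promoter letters were counted in RefSeq's table, which starts 250 bases before each gene. The number of arrays limits the precision.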

Additional observations from a re-analysis of the deposited data

Results flagged for a closer look

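Of 70 groups of 6 arrays tested for a single array apart from the rest, 2 were met, where chance gives about 1 in 20. The erythroid marker median of -2.01 on the 2-week CCH array called replicate 1 lay far below the other 5 CCH arrays. The median of the splicing and nuclear RNA-binding genes was -0.10 on the 1-week CIH array called replicate 2, apart from the other CIH arrays. Pgrmc1 had a CCH minus CIH difference at 2 weeks that was lower by -2.36 than that at 1 week (limma adjusted p = 0.0411), and this contrast of the differences was itself tested.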

How the results depend on the processing

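Over the 3 durations 1 gene was called in the reported fit. With all 18 arrays in the fit there were 2, Phtf1 and Blvrb, and 0 with spots valued on all 12 arrays alone, with array weights, in an additive model of condition and duration, and, in alternatives chosen after seeing the data, with spot effects removed, with each spot as a unit, or with the erythroid median as a covariate. At 1 week 0 genes were called under every alternative run. At 2 weeks the 2 calls became 0 with unnamed spots added, with completely valued spots, with the replicate block, with spot effects removed or with each spot as a unit, 4 with array weights, and 1 when the 1-week CIH array with conflicting labels was regrouped as CCH at 2 weeks. Phtf1, higher under CCH and not called at 2 weeks in the reported fit, was called there in 8 of 14 alternatives, and with all 18 arrays it took the place of Plekha7. At 4 weeks the 6 calls became 2 under quantile normalization, 2 with all arrays brought to the same spread, 17 with all 18 arrays (without Epb41l5 and Ly6e), 0 with unnamed spots added, with the replicate block or with array weights, 2 with each spot as a unit and 1 with the erythroid covariate. For the change with duration the 0 calls became 1 under quantile normalization, scaling or all 18 arrays (Pgrmc1 each), 1 with completely valued spots or spot effects removed (Epb41l5 each) and 1 after regrouping (Hspb2). Leaving out 1 array at a time gave 0 to 88 calls over the 3 durations, 0 to 0 at 1 week, 0 to 1 at 2 weeks, 0 to 58 at 4 weeks and 0 to 2 for the change with duration. The CCH minus CIH difference in spread was -0.0055 under quantile normalization, which sets spreads equal, and 0.0024 to 0.0567 with 1 array left out. The causes of the other shifts were not tested. The replicate block left Phtf1 called over the 3 durations (limma adjusted p = 0.0311). Where a left-out array leaves its group with 1 array, that array is assumed to vary like the others. No called gene changed sign under any alternative run.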

Other observations

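Some genes below the threshold in the reported fit were set apart on both CCH arrays of 4 weeks. Sulf2, an extracellular enzyme that trims sulfate from heparan sulfate, was at -1.23 and -1.04 on the 4-week CCH arrays, against -0.23 and 0.14 on the 4-week CIH arrays, and lay between -0.24 and 0.20 on every other array. Its difference was -1.09 ± 0.20 (limma adjusted p = 0.0647). Tmed5, a cargo receptor of the early secretory pathway, was at 1.07 and 1.48 on the 4-week CCH arrays, against 0.25 and -0.04 on the 4-week CIH arrays, a difference of 1.17 ± 0.21 (limma adjusted p = 0.0647). The 2-week CCH array called replicate 1 is not part of the 4-week contrast, and leaving it out left both differences unchanged. Over the 12 fits that leave out 1 array, the Sulf2 difference ran from -1.28 to -0.90. The basement membrane collagen gene Col4a2 was at 1.21 and 0.99 under CCH at 4 weeks, against -0.33 on the 1 CIH array with a value (difference 1.43 ± 0.36, limma adjusted p = 0.0987), and the 4-week controls at 1.11 and 0.40 were also above that array.

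The immediate early genes Jun and Dusp1 were lower under CCH at 1 week without passing, and Jun also at 2 weeks. Jun was at -0.19 and 0.38 on the 1-week CCH arrays, against 0.84 and 1.19 on the 1-week CIH arrays, a difference of -0.92 ± 0.24 (limma adjusted p = 0.66). At 2 weeks it was at -0.57 on the 1 CCH array with a value, against 0.37 and 0.42 on the CIH arrays, a difference of -0.97 ± 0.30 (limma adjusted p = 0.582). Dusp1, the phosphatase that ends MAP kinase signalling, was at -0.99 and -0.25 on the 1-week CCH arrays, against 0.31 and 0.35 on the 1-week CIH arrays, a difference of -0.95 ± 0.27 (limma adjusted p = 0.66). The 1-week controls were at 1.18 and -0.35 for Jun and at 0.37 and 0.04 for Dusp1, so that those of Jun spanned nearly the whole range of both conditions. The lower of these CIH arrays for both genes is the one of conflicting labels. The 12 tested immediate early and stress genes had a median difference of -0.33 at 1 week and 0.08 at 2 weeks. At 2 weeks Thbd, the endothelial thrombin cofactor thrombomodulin, was at -0.68 and -0.48 on CCH arrays, against 0.27 and 0.54 on CIH arrays, and stood above the 4-week CIH arrays on both 4-week CCH arrays, at 0.76 and 0.92 against 0.32 and 0.06 (limma adjusted p = 0.478 and 0.128).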
